A study of Mus musculus with 4 samples.

Results

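The actin monomer, severing and capping proteins are described here through the RNAs of 10 genes: Pfn1, Cap1, Tmsb4x and Tmsb10, whose proteins bind actin monomers; Cfl1, Cfl2 and Dstn, which encode the cofilin family; and Capza1, Capza2 and Capzb, which encode capping protein. They were chosen by gene symbol, as all probe sets that the platform annotation assigns to 1 of these symbols and to no other. A probe set is the group of short probes that the array uses to measure a transcript. The rule found 23 probe sets among the 34958 with 1 symbol, and the 10 genes are 10 of the 18193 that such probe sets name. The members were picked with earlier results of these data known, but not by their values.

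The samples came from NIH/3T3 cells, a mouse fibroblast line, hybridised to 4 Affymetrix mouse arrays of 1 design. One group was pseudopodia, the protrusions that cells push through a porous membrane, with 2 arrays. The other was the cell bodies left on the upper side, also with 2 arrays. Both groups came from serum-starved cells that had spread for 2 h on a fibronectin-coated insert of 24 mm and had then been exposed from below to lysophosphatidic acid (LPA) at 150 ng/ml for 1 h. After light fixation (10 min in 0.3% formaldehyde), the side not wanted was wiped off by hand. The fixation was reversed at 70 °C for 45 min. Serum at 10% is also listed for all 4 arrays, without the step it belongs to. All samples are of this 1 cell line, and unstimulated cells were not analysed here. Because the authors scaled each array to a common mean, a difference says how much of a fraction's whole signal a gene took up. How much RNA a protrusion holds and how much protrusion was collected cannot be told apart. The samples are described as independent, but the labels do not say how the cultures were separated, so p-values measure the spread between these arrays only.

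Actin filaments grow at their barbed ends from monomers and are taken apart at older stretches, and a protrusion advances while this cycle turns. Profilin hands monomers to growing ends, thymosin beta peptides hold monomers in reserve, cofilin and its relatives sever and disassemble old filaments, cyclase-associated protein recharges the released monomers, and capping protein stops growth at barbed ends. All act at the front of migrating fibroblasts.

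The arrays measured fibroblast RNA in both fractions. Of 10 fibroblast markers, 9 were above the brightness filter, with summed signals of 130575.1 and 139079 in pseudopodia and 138987 and 142939.1 in cell bodies, and Thy1 was below it. None of 4 measured blood markers passed the filter. Their summed signals were 38.1 and 72.3 in pseudopodia and 61.6 and 42.6 in cell bodies. Of the other markers, 3 of 5 epithelial ones passed the filter (Epcam, Krt14 and Cdh1, with signals up to 2198.7), as did 1 of 4 endothelial ones (Kdr) and 1 of 5 of muscle and fat (Des). The list of 10 protrusion RNAs, partly known from these samples, had summed signals of 47565.4 and 47805.7 in pseudopodia against 15229.6 and 15041.1 in cell bodies. Of these, 7 were higher in both pairs and Net1, Dynll2 and Inpp1 were not. Cyb5r3, at 20710.8 and 22321.1 in pseudopodia and 6814 and 6075.7 in cell bodies, made up the largest share of the sum. Neat1 and Malat1, RNAs kept in the nucleus, summed to 1125.7 and 2472.8 in pseudopodia against 5414.9 and 6280 in cell bodies. The ratio of the 3' to the 5' control probe set of beta-actin, a measure of RNA integrity, was 1.77 and 3.41 in pseudopodia and 1.55 and 1.89 in cell bodies. Pseudopodia replicate 2 therefore stood apart from the other arrays in this ratio. The same ratio for the Gapdh controls was close on all 4 arrays, at 0.96 and 1.01 in pseudopodia and 0.92 and 0.95 in cell bodies.

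Across the 10 genes, most RNAs measured somewhat higher in pseudopodia, by less than the test requires. After a filter that kept probe sets in the brighter part of the array, 21 of the 23 member probe sets entered the comparison and 2 were too dim. Each difference below is pseudopodia minus cell body on the log2(signal + 32) scale, with the SE from limma (n = 2 arrays in each fraction). None of the 21 passed an adjusted p of 0.05 in limma with Benjamini-Hochberg adjustment over 22519 probe sets, where 4.40% of all probe sets did, 1.08% as higher and 3.32% as lower. The lowest adjusted p among them was 0.0679. Differences were positive in 14 of the 21, against 47.7% of all probe sets kept. Their median was 0.36, beside -0.03 over all probe sets kept. The comparison value depends on the class of probe set, given by the ending of its name. The 12 member probe sets of class _at had a median of 0.41, beside -0.07 over all kept of that class. For the 4 of class _x_at it was 0.50, beside 0.22, and this class made up 6.84% of all kept. For the 3 of class _a_at it was 0.08, beside 0.02, and for the 2 of class _s_at 0.43, beside 0.07. Taking each gene by its brightest probe set, 8 of 10 were positive with a median of 0.55, beside 51.2% and 0.01 over all 10962 genes measured.

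The same numbered arrays of both fractions were scanned on the same day and share an experiment code. With the replicate number as a block, 8 of the 21 probe sets, from 7 genes, passed as higher and 1 as lower, where 6.84% and 11.3% of all probe sets did. That fit has 1 residual degree of freedom against 16.8 from the shared prior (2 and 5.56 without the block), so its p-values rest mostly on a spread borrowed from other probe sets. A call with the block is named below beside the fit without it. Taking each gene by its brightest probe set, the median of the 10 genes was 0.24 without pseudopodia replicate 1 and 0.55 without pseudopodia replicate 2. It was 0.60 without cell body replicate 1 and 0.45 without cell body replicate 2. A fit with 1 array left out takes the spread from a single fraction.

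**Figure D1:**
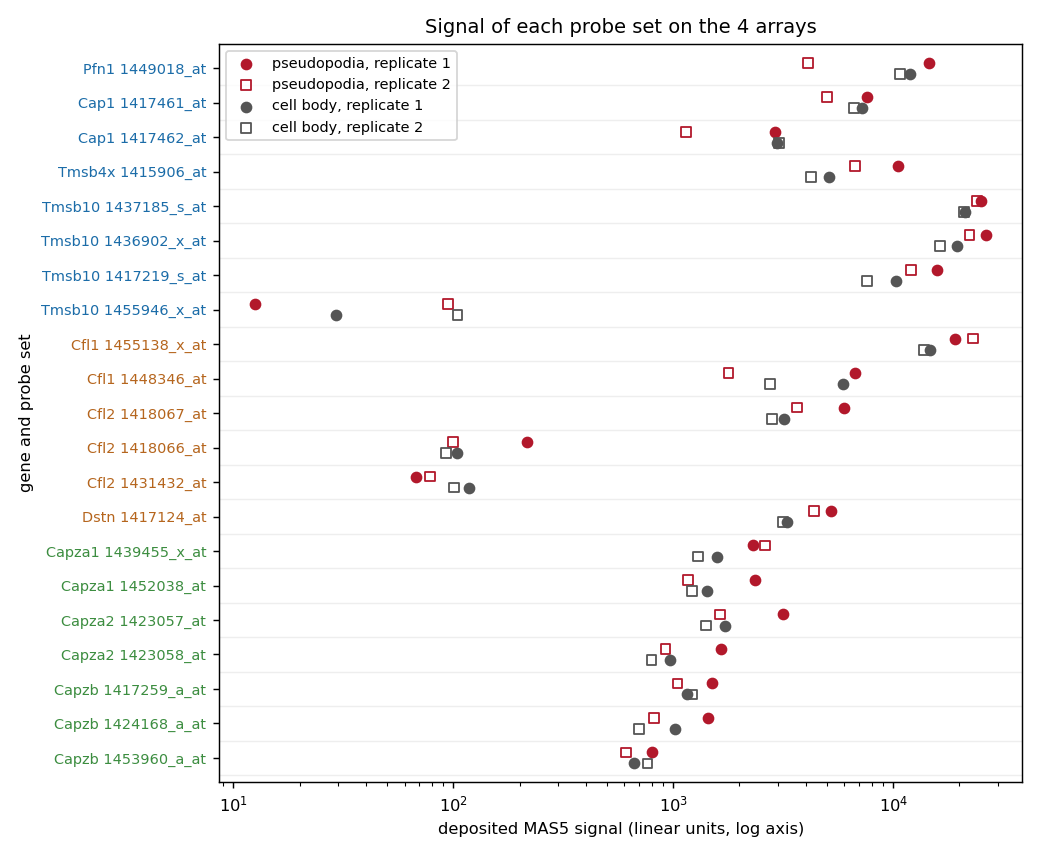
Deposited MAS5 signal (log axis) of the 21 member probe sets kept, with filled symbols for replicate 1, open symbols for replicate 2, red for pseudopodia and grey for cell bodies. Both red symbols lie right of both grey ones for Tmsb4x and Dstn, whereas for Pfn1 the pseudopodia replicate 2 array lies apart at 4092.4.

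Among the monomer-binding proteins, the RNA of Tmsb4x had the largest difference of all member probe sets. Tmsb4x encodes thymosin beta 4, the main peptide that sequesters actin monomers. Its probe set gave signals of 10527.5 and 6715.6 in pseudopodia, against 5091.6 and 4241.4 in cell bodies. Both pseudopodia arrays were above both cell body arrays, by 2.07-fold in the replicate 1 pair and 1.58-fold in the replicate 2 pair. The difference was 0.85 ± 0.23 (adjusted p = 0.0808), and it passed with the replicate number as a block (adjusted p = 0.000401). It was 0.53 without pseudopodia replicate 1 (adjusted p = 0.0655) and 1.18 without pseudopodia replicate 2 (adjusted p = 0.000239).

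Tmsb10, which encodes thymosin beta 10, a close relative with the same sequestering activity, had 5 probe sets. The brightest, 1437185_s_at, gave 25178.1 and 24008.0 in pseudopodia and 21133.7 and 21034.5 in cell bodies, a difference of 0.22 ± 0.12 (adjusted p = 0.328). That small positive value turned to -0.11 after quantile normalization and to -0.11 after scaling on the hybridization controls. A second probe set, 1436902_x_at, gave 26398.6 and 22217.8 in pseudopodia and 19439.5 and 16282.2 in cell bodies. In these 2 probe sets, and in 1417219_s_at, the fractions did not overlap.

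The Tmsb10 probe set 1417219_s_at had signals of 15863.2 and 12075.0 in pseudopodia and 10257.3 and 7615.0 in cell bodies. It differed by 0.65 ± 0.20 (adjusted p = 0.113; 0.00116 with the block), and 1436902_x_at by 0.44 ± 0.15 (adjusted p = 0.141; 0.00816 with the block). The 3 bright probe sets thus ran the same way in both replicate pairs and differed in size. After quantile normalization 1417219_s_at stood at 0.30 and 1436902_x_at at 0.12. Scaling on the hybridization controls brought them to 0.31 and 0.11. Without pseudopodia replicate 2, 1417219_s_at passed at 0.84 and 1436902_x_at at 0.57, and without pseudopodia replicate 1 neither did, at 0.45 and 0.32. The fourth, 1455946_x_at, was dim, at 12.6 and 94.4 in pseudopodia and 29.2 and 104.5 in cell bodies, and stood at -0.39 ± 0.70. It followed the replicate number more than the fraction. The fifth, 1436682_at, was too dim to keep, with no signal above 38.4 on any array.

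Pfn1, the gene of profilin 1, the ubiquitous carrier of actin monomers, had 1 probe set and went opposite ways in the 2 replicate pairs. It gave 14581.3 and 4092.4 in pseudopodia, against 11971.4 and 10696.5 in cell bodies. Pseudopodia replicate 1 was the highest array and pseudopodia replicate 2 the lowest by a wide margin. The ratio of pseudopodia to cell body was 1.22 in the replicate 1 pair and 0.383 in the replicate 2 pair. The mean difference of -0.55 ± 0.49 (adjusted p = 0.564) had an SE nearly as large as itself. Without pseudopodia replicate 2 it was 0.37, and without pseudopodia replicate 1 it was -1.46 (adjusted p = 4.25e-06), so the sign came from that 1 array. The gap between the pairs, -1.67 on the log2 scale, placed Pfn1 in the lowest 1.01% of all probe sets kept.

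Cap1 encodes cyclase-associated protein 1, which works with cofilin and promotes nucleotide exchange on the released monomers. Its brighter probe set, 1417461_at, gave 7597.4 and 5012.6 in pseudopodia and 7247.1 and 6653.0 in cell bodies, with overlapping fractions. Its other probe set, 1417462_at, gave 2913.3 and 1138.2 in pseudopodia against 2955.4 and 3013.6 in cell bodies. Here both pseudopodia arrays were below both cell body arrays, but replicate 1 by a margin of only 0.02 on the log2 scale. The differences were -0.17 ± 0.21 (adjusted p = 0.695) and -0.71 ± 0.38 (adjusted p = 0.330). The second was the only member probe set that passed as lower with the replicate number as a block (adjusted p = 0.0356). Without pseudopodia replicate 2 the brighter probe set stood at 0.13 and the dimmer one at -0.03 (adjusted p = 0.944). Without pseudopodia replicate 1 the dimmer one stood at -1.38 (adjusted p = 3.76e-05), so its low value came from pseudopodia replicate 2.

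For the severing proteins, the brightest probe set of each gene had a positive difference, none of them past the threshold without the block. Dstn, the gene of destrin (actin-depolymerizing factor), a cofilin relative that also removes monomers from filament ends, gave 5193.6 and 4367.5 in pseudopodia, against 3300.8 and 3155.9 in cell bodies. Its fractions did not overlap, and the ratios of 1.57 and 1.38 in the 2 pairs were alike. The difference was 0.56 ± 0.17 (adjusted p = 0.107), and it passed with the block (adjusted p = 0.0113). It was 0.43 without pseudopodia replicate 1 (adjusted p = 0.147) and 0.68 without pseudopodia replicate 2 (adjusted p = 0.0239).

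Cfl1, the gene of the non-muscle cofilin 1, gave a different answer on each of its 2 probe sets. The brighter, 1455138_x_at, had signals of 19031.4 and 23049.4 in pseudopodia and 14660.8 and 13813.9 in cell bodies. The other, 1448346_at, had 6696.8 and 1783.8 in pseudopodia and 5920.7 and 2751.0 in cell bodies. On the first the fractions did not overlap and the larger gap was in replicate 2, while on the second they overlapped and both replicate 2 arrays were low.

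The differences of the Cfl1 probe sets were 0.56 ± 0.14 (adjusted p = 0.0724; 0.00337 with the block) and -0.22 ± 0.59 (adjusted p = 0.867). After quantile normalization they stood at 0.22 and -0.37, and after scaling on the hybridization controls at 0.22 and -0.55. Without pseudopodia replicate 1 the first passed at 0.70 and the second at -1.17. Without pseudopodia replicate 2 the first stood at 0.42 (adjusted p = 0.130) and the second at 0.73, and the second stood at 0.33 without cell body replicate 1. Probe sets with names ending in _x_at contain probes that can also match other sequences, per Affymetrix naming, and cofilin and thymosin genes have processed copies in the mouse genome. Cross-hybridisation of these probe sets was not tested.

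Cfl2, the gene of the cofilin form most abundant in muscle, was measured by 3 probe sets. The bright one, 1418067_at, had signals of 5998.2 and 3666.2 in pseudopodia and 3172.3 and 2815.9 in cell bodies, with no overlap. Its difference was 0.65 ± 0.24 (adjusted p = 0.176; 0.00765 with the block). It was 0.29 without pseudopodia replicate 1 (adjusted p = 0.368) and 1.00 without pseudopodia replicate 2 (adjusted p = 0.00152). Much dimmer, 1418066_at gave 215.3 and 99.8 in pseudopodia and 104.3 and 92.8 in cell bodies. Only pseudopodia replicate 1 stood out there, and the difference was 0.52 ± 0.36 (adjusted p = 0.443). It was 0.02 without pseudopodia replicate 1 (adjusted p = 0.981) and 1.02 without pseudopodia replicate 2 (adjusted p = 0.0343). The third, 1431432_at, gave 67.4 and 78.1 in pseudopodia, against 117.7 and 100.3 in cell bodies. It went the other way without overlap, at -0.49 ± 0.27 (adjusted p = 0.335).

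Capping protein is a heterodimer of an alpha subunit, from Capza1 or Capza2, and a beta subunit, from Capzb. The brighter Capza1 probe set, 1439455_x_at, gave 2307.0 and 2614.0 in pseudopodia, against 1586.8 and 1297.9 in cell bodies, without overlap. Its difference of 0.77 ± 0.19 had the lowest adjusted p of all members (0.0679; 0.00405 with the block). It passed without pseudopodia replicate 1 (0.86) and without pseudopodia replicate 2 (0.68), but not without cell body replicate 1 or 2 (adjusted p = 0.344 and 0.421). The other Capza1 probe set, 1452038_at, gave 2364.4 and 1161.8 in pseudopodia and 1430.0 and 1221.8 in cell bodies. Those fractions overlapped, with a ratio of 1.65 in the replicate 1 pair and 0.951 in the replicate 2 pair, and a difference of 0.32 ± 0.32 (adjusted p = 0.608). It stood at -0.01 after scaling on the hybridization controls, -0.18 without pseudopodia replicate 1 and 0.83 without pseudopodia replicate 2 (adjusted p = 0.0135).

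Capza2 had 2 probe sets that ran together. The first, 1423057_at, gave 3141.6 and 1632.4 in pseudopodia and 1724.4 and 1405.3 in cell bodies. The second, 1423058_at, gave 1652.7 and 921.5 in pseudopodia and 965.2 and 796.0 in cell bodies. Each was higher in pseudopodia in both pairs, with ratios of 1.82 and 1.16 on the first and 1.71 and 1.16 on the second. In both, pseudopodia replicate 2 lay below cell body replicate 1. The differences were 0.54 ± 0.31 and 0.49 ± 0.29 (adjusted p = 0.353 and 0.377). With the block the first passed (adjusted p = 0.0443), and without pseudopodia replicate 2 both did, at 1.01 and 0.90. Without pseudopodia replicate 1 both stood at 0.07 (adjusted p = 0.881 and 0.883).

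The beta subunit gene Capzb had 4 probe sets, of which 1431668_at was dim, with no signal above 22.9. The brightest, 1417259_a_at, gave 1498.5 and 1045.7 in pseudopodia and 1152.6 and 1223.8 in cell bodies. Another, 1424168_a_at, gave 1444.0 and 819.2 in pseudopodia and 1018.7 and 700.1 in cell bodies, and 1453960_a_at gave 799.2 and 609.0 in pseudopodia and 660.9 and 764.0 in cell bodies. All 3 overlapped between the fractions, and in each pseudopodia replicate 1 was the highest array. Their differences of 0.08 ± 0.23, 0.36 ± 0.31 and -0.03 ± 0.23 had adjusted p of 0.886, 0.552 and 0.963. Leaving out pseudopodia replicate 1 brought 1417259_a_at to -0.18 and 1424168_a_at to -0.04. Leaving out pseudopodia replicate 2 brought 1424168_a_at to 0.76 (adjusted p = 0.0447) and 1453960_a_at to 0.17. After scaling on the hybridization controls 1417259_a_at stood at -0.25, and after quantile normalization 1453960_a_at stood at 0.07.

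**Figure D2:**
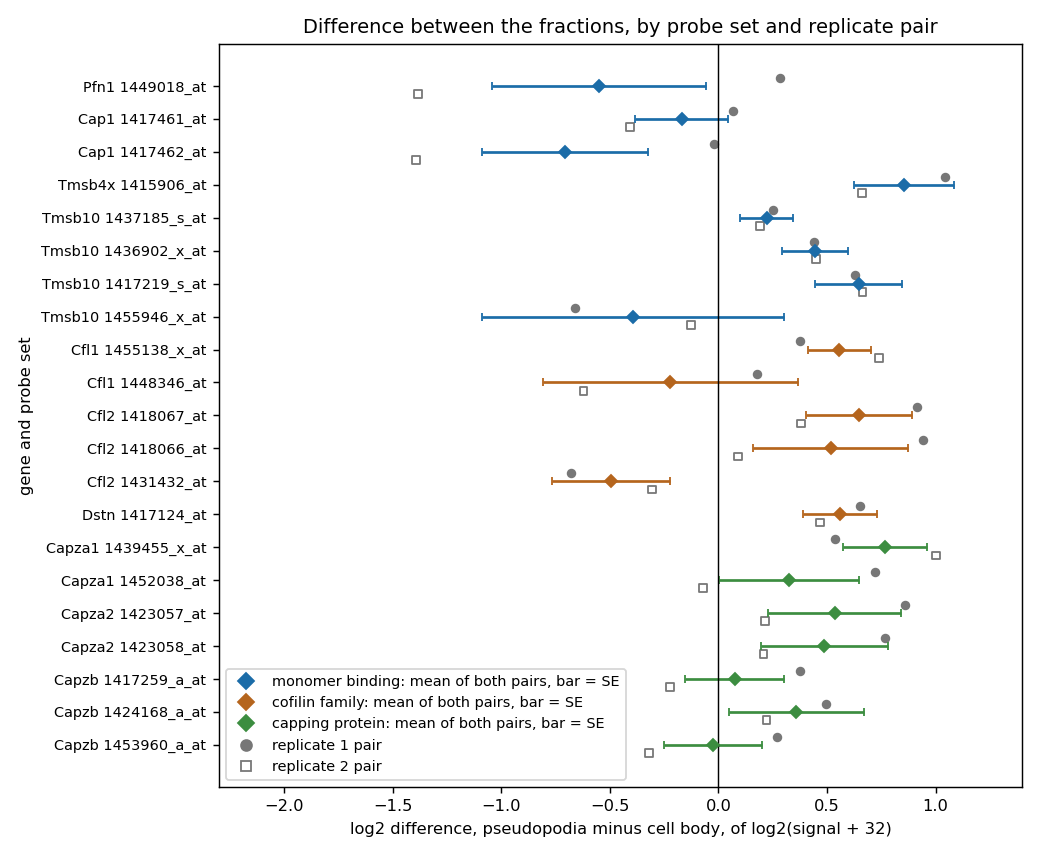
Log2 difference of pseudopodia minus cell body for the 21 member probe sets kept, with diamonds for the mean of both pairs, bars for the SE of the fit, and grey symbols for the 2 replicate pairs. The pairs lie close together for the 3 bright Tmsb10 probe sets and far apart for Pfn1, at 0.28 and -1.38.

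Taken by role, the medians of the kept probe sets were 0.03 for the 8 of monomer-binding genes, 0.54 for the 6 of the cofilin family and 0.36 for the 7 of capping protein. Both pseudopodia arrays were above both cell body arrays in 4, 3 and 1 of them, in the same order. In all, 8 of the 21 probe sets, from 6 genes (Tmsb4x, Tmsb10, Cfl1, Cfl2, Dstn and Capza1), were higher in pseudopodia without overlap, where 24.8% of all probe sets were, and 2 were lower without overlap, where 28.2% were. None differed by 1.5-fold or more in every one of the 4 possible array pairs, which 2.79% of all probe sets did as higher and 7.86% as lower. Of the 7 genes with more than 1 kept probe set, 4 (Tmsb10, Cfl1, Cfl2 and Capzb) had values of both signs. The widest gap between probe sets of a gene was 1.14 in Cfl2 and the narrowest 0.05 in Capza2.

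The replicate pairs differed more than the fractions did for several members. Of the 21 probe sets, 18 were higher in pseudopodia in the replicate 1 pair and 12 in the replicate 2 pair. Pseudopodia were higher in both pairs in 12 of the 21, where 33.0% of all probe sets were, and lower in both in 3, where 36.4% were. The median was 0.44 in the first and 0.19 in the second, beside -0.01 and -0.04 over all probe sets kept. In 6 of the 21 (Pfn1, Cap1 1417461_at, Cfl1 1448346_at, Capza1 1452038_at and 2 of Capzb), pseudopodia were higher in the first pair and lower in the second, where 16.2% of all probe sets were. At least 0.5 log2 units lower in the second pair than in the first were 10 of the 21, beside 17.2% of all probe sets kept.

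The beta-actin controls on the same arrays gave values for comparison. The 3' probe set differed by 0.25 in the replicate 1 pair and 0.33 in the replicate 2 pair, the middle one by 0.19 and 0.07, and the 5' one by 0.06 and -0.52. The beta-actin 5' and middle controls thus had a lower difference in the second pair than in the first, and the 3' control did not. Of the 21 member probe sets kept, 15 were lower in the second pair than in the first, beside 49.7% of all probe sets kept. Among the 15 were Pfn1, Tmsb4x, Dstn and the Cfl1 probe set 1448346_at. The rest were higher in the second pair, such as Cfl1 1455138_x_at (by 0.36) and Capza1 1439455_x_at (by 0.47). For Gapdh the 3' and 5' control values were 0.34 and 0.27 in the first pair and 0.17 and 0.09 in the second. Unlike that of beta-actin, the Gapdh 3' control was thus lower in the second pair, as its 5' control was. The position of the member probe sets along their transcripts was not analysed here, and the part of RNA integrity in these differences was not tested.

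**Figure D3:**
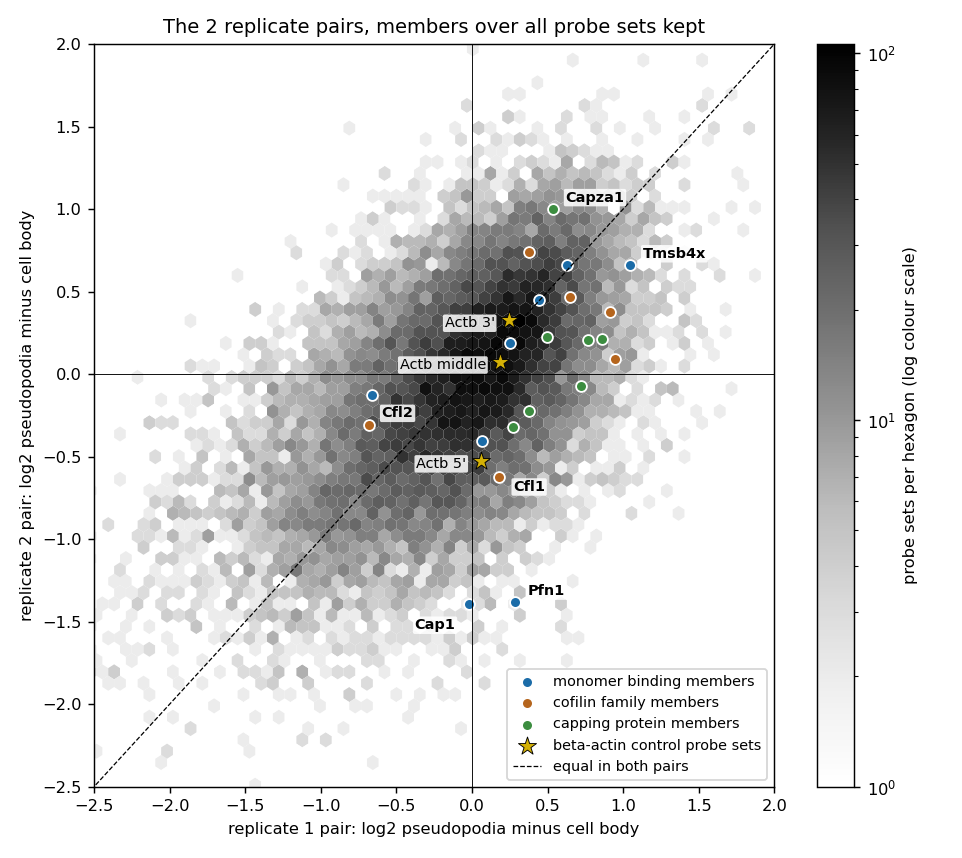
Log2 difference of pseudopodia minus cell body in the replicate 1 pair (horizontal) against the replicate 2 pair (vertical), with members coloured by role, beta-actin controls as stars, and all 22519 probe sets kept as grey hexagons (those beyond the axes are not drawn). Pfn1 and 1 Cap1 probe set lie near -1.4 in the replicate 2 pair, and the beta-actin 5' control lies at -0.52 there.

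The brightest probe set of Dstn had the profile nearest to the median profile of the 10 genes, at a distance of 0.16, and that of Pfn1 the farthest, at 1.45 (Euclidean distance between log2 values centred on each gene's mean, over 4 arrays). Outside the 10 genes, the nearest profiles were those of Akap11, Fancl and Arl1, at distances of 0.06, 0.07 and 0.07. With 4 arrays this likeness describes the arrays only.

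Other genes of actin turnover were listed by their known roles, with earlier results of these data known. Of 62 listed, 52 had a probe set with 1 symbol and 35 had one above the filter. At an adjusted p under 0.05 in limma, 1.30% of all genes passed as higher and 2.52% as lower on their brightest probe sets. None of the 35 did. Their median was 0.08, with 20 of 35 positive, so the list stood closer to the median gene (0.01) than the 10 members did. With the replicate number as a block 5 passed as higher and 1 as lower, where 7.71% and 9.72% of all genes did.

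The 4 brightest of these genes had small differences on their brightest probe sets. Gsn, the gene of gelsolin, which severs filaments and caps them in the presence of calcium, gave 18984.0 and 22626.1 in pseudopodia and 17318.3 and 18267.5 in cell bodies (0.22 ± 0.14, adjusted p = 0.402). Capg, a gelsolin relative that caps without severing, differed by 0.15 ± 0.15 (adjusted p = 0.608). Coro1b, a coronin that acts on old branches and on cofilin activity, differed by -0.17 ± 0.15 (adjusted p = 0.569), and Flii, another gelsolin relative, by -0.30 ± 0.17 (adjusted p = 0.348). None of these 4 probe sets came near the threshold. The other kept probe sets of Gsn stood at 0.31, -0.35, 0.26 and -0.53, so they differed in sign. That of Flii stood at -0.19, and that of Capg, much dimmer, at 1.41 (adjusted p = 0.156).

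By size, taking each gene by its brightest probe set, the largest differences in the list were those of Mical3, Mtpn and Limk1. These were picked out after their values were seen. Some dimmer probe sets differed by more. Sh3kbp1 1432269_a_at differed by -1.20 ± 0.38 (adjusted p = 0.121, and 0.0390 with the block). Capg 1447803_x_at differed by 1.41 ± 0.51 (adjusted p = 0.156, and 0.00982 with the block). The brightest probe sets of these genes stood at 0.52 and 0.15. Mtpn encodes myotrophin, which binds capping protein and keeps it from barbed ends. Its brightest probe set, 1420473_at, gave 4143.1 and 3146.3 in pseudopodia, against 2225.9 and 1662.9 in cell bodies. The fractions did not overlap, and the difference was 0.90 ± 0.22 (adjusted p = 0.0643; 0.000502 with the block). A second Mtpn probe set, 1437457_a_at, was the only 1 of 86 kept probe sets of the list that passed without the block. It gave 2358.5 and 2821.4 in pseudopodia and 1236.2 and 1149.4 in cell bodies, a difference of 1.10 ± 0.19 (adjusted p = 0.0295). That call was lost after scaling on the hybridization controls (adjusted p = 0.0830), without the filter (0.0578), without the variance trend (0.0996), and without cell body replicate 1 or 2 (0.303 and 0.262), checks chosen after seeing the data. Its 3 other probe sets stood at 0.45, 0.39 and -0.16 and did not pass.

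Limk1, the kinase that phosphorylates and inactivates cofilin, gave 717.0 and 906.7 in pseudopodia, against 464.4 and 444.3 in cell bodies (0.81 ± 0.22, adjusted p = 0.0800; 0.00877 with the block). Its close relative Limk2 had 3 kept probe sets, at 0.06, -0.46 and 0.04. Among the phosphatases that reactivate cofilin, the 4 kept probe sets of Ssh1 stood at -0.18, -0.76, 0.14 and -0.73. Those of Ssh2 stood at -0.45 and 0.12, and the dim single one of Pdxp at -0.68. None of these passed, and probe sets of 1 gene differed in sign for Limk2, Ssh1 and Ssh2. Wdr1, a cofactor that speeds disassembly of cofilin-bound filaments, resembled Pfn1 on its brightest probe set, and was picked out for that. That probe set gave 3477.5 and 1170.4 in pseudopodia and 3351.3 and 2684.5 in cell bodies, with pseudopodia replicate 2 the lowest array. It differed by -0.57 ± 0.44 (adjusted p = 0.504). Of its other kept probe sets, 1423054_at differed by 0.07 and -0.54 in the 2 pairs. The other, 1437591_a_at, was lower in both, at -0.42 and -0.74, unlike Pfn1. Mical3, of the Mical enzymes that oxidise actin, had the lowest value among the brightest probe sets of the list. It stood at -1.02 ± 0.27 (adjusted p = 0.0754, and 0.00831 with the block).

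**Figure D4:**
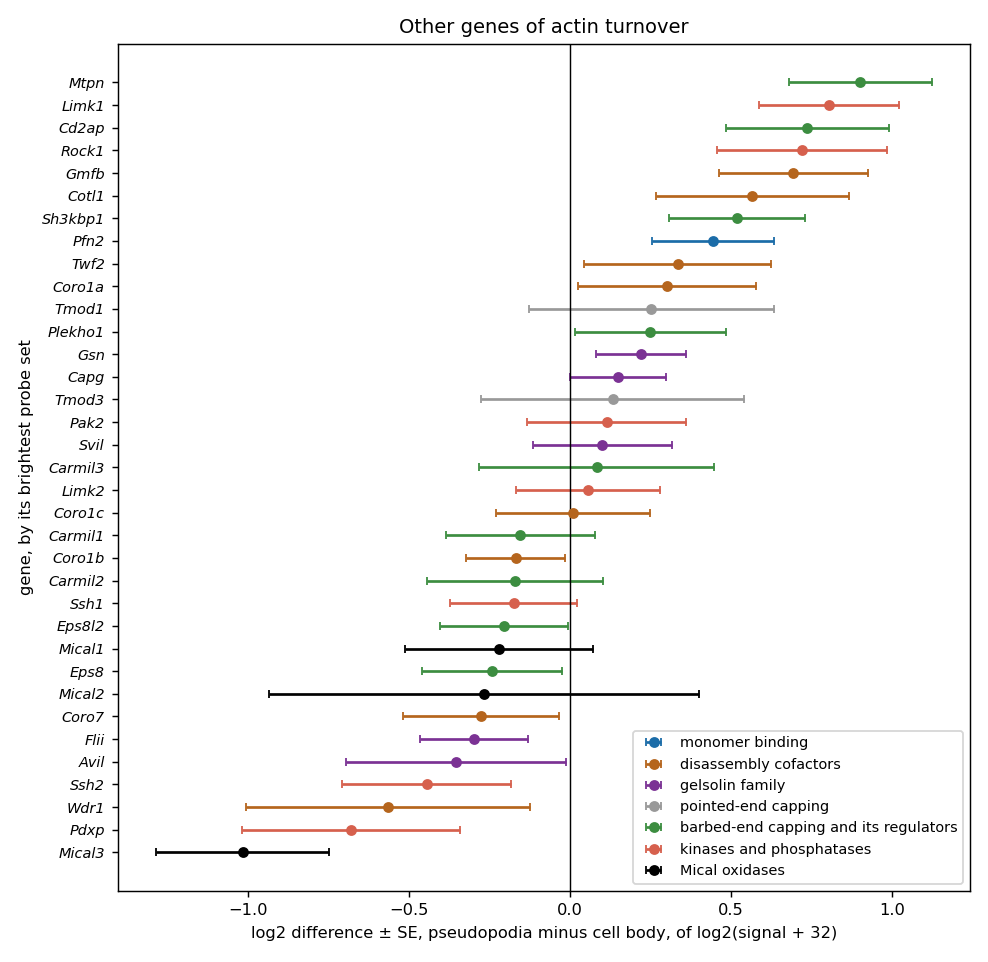
Log2 difference of pseudopodia minus cell body ± SE for 35 other genes of actin turnover, each by its brightest probe set and coloured by role. Values run from 0.90 for Mtpn to -1.02 for Mical3, with 20 above 0.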

How the data were processed

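Each array gave 1 MAS5 signal per probe set, an intensity in linear units that the authors deposited (per the submitters' processing notes). The version and scaling target are not given in the sources used here. The authors had scaled the arrays alike: without the top and bottom 2% of values, each averaged 250.0. Median signals were 31.0 and 33.3 in pseudopodia and 29.8 and 33.2 in cell bodies, and the number of arrays limits the precision. Dim probe sets are noisy, since MAS5 takes off the signal of mismatched probes. All arrays were of 1 chip lot and scanned on 2 days, per the file headers, with 1 pseudopodia and 1 cell body array of the same number on each day.

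Gene names came from the platform annotation (34958 of 45101 probe sets had 1 symbol, 932 several, 9211 none). All 10 members matched the RefSeq gene table by gene ID. No genome or probe sequence was used, so positions within genes were not analysed here.

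For the comparison each array was brought to a trimmed mean of 500 and taken as log2(signal + 32), which understates changes of dim probe sets. The brighter part of the 45037 probe sets other than controls was kept (mean log2 value not below the median). Pseudopodia and cell bodies were compared over these 22519 with limma 3.58.1 in R 4.3.3 (lmFit, eBayes with a variance trend, two-sided, Benjamini-Hochberg adjustment). This fit was also run on simulated arrays with known changes, but the outcome is not given here and no result rests on it. With 2 arrays against 2, the smallest p of an exact permutation test is 0.333, so none was run. Same-numbered arrays count as pairs because they share a scan day and an experiment code (their deviations between replicates correlated across probe sets with r = 0.243). Members and lists were chosen with earlier results of these data known. Every member probe set is named. Of the other genes, the rule names those that pass (up to 12), the 4 brightest that do not and the 3 nearest in profile. Mical3, Mtpn, Limk1, Limk2, Ssh1, Ssh2, Pdxp, Wdr1 and Sh3kbp1 fall outside this rule and were named with their values known. Alternatives covered the block, scaling, pseudocount, filter, variance trend, probe set class and each array left out.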

Additional observations from a re-analysis of the deposited data

How the results depend on the processing

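No member probe set and no gene of the wider list, taken by its brightest probe set, passed under median centring, quantile normalization, scaling on the hybridization controls, a pseudocount of 16 or 64, no filter, a stricter filter, no variance trend, or with only _at and _a_at probe sets. With the replicate block, 9 member probe sets and 6 genes of the wider list passed, of 4087 probe sets in all (990 without it). The count over all probe sets was 1565 on hybridization controls (55 higher and 1510 lower, against 243 and 747), 176 without the filter and 0 without the variance trend. Leaving out 1 array at a time gave 0 to 4030 probe sets, 0 to 11 member probe sets and 0 to 8 genes of the wider list. The spread in those fits comes from 1 fraction only, and the lone array is assumed to vary alike.

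The median of the member genes, 0.55, was 0.34 after quantile normalization, 0.22 on hybridization controls (where the median of all probe sets was -0.32, so that the members stood 0.54 above it), 0.32 with only _at and _a_at probe sets, 0.23 with the mean of all kept probe sets of each gene, and 0.30 in the replicate 2 pair. It ran from 0.24 to 0.60 with 1 array left out. Signs turned after quantile normalization in Tmsb10 1437185_s_at (-0.11) and Capzb 1453960_a_at (0.065), and on hybridization controls in Tmsb10 1437185_s_at (-0.11), Capza1 1452038_at (-0.0054) and Capzb 1417259_a_at (-0.25). With 1 array left out, 8 member probe sets had values of both signs. These ran from -1.46 to 0.37 in Pfn1, -0.47 to 0.13 in Cap1 1417461_at, -1.37 to 0.58 in Tmsb10 1455946_x_at, -1.17 to 0.73 in Cfl1 1448346_at, -0.18 to 0.83 in Capza1 1452038_at, and in Capzb from -0.18 to 0.33 (1417259_a_at), -0.044 to 0.76 (1424168_a_at) and -0.22 to 0.17 (1453960_a_at). The cause was not tested.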
